A study of Mus musculus with 6 samples.

Results

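The genes described here make, regulate and move sterols, fatty acids and phospholipids, and were read in CD45-negative lung cells of mice exposed to silica. They were 40 listed genes, matched to the arrays by the RefSeq transcript that each probe was designed for and kept if at least 2 of the 6 arrays showed a probe well above background. All 40 were kept, of 16440 genes measured in all, and each was well above background on all 6 arrays. By role they were 3 regulators, 7 enzymes from mevalonate to squalene, 10 from squalene to cholesterol, 3 genes of sterol transport, 11 of fatty acid supply and use, and 6 of phospholipid and surfactant metabolism.

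Cells build cholesterol from acetyl-CoA through mevalonate, squalene and lanosterol, and the transcription factor SREBP-2, encoded by Srebf2, switches on most enzymes of this route when membrane sterol falls. SREBP-1, encoded by Srebf1, acts mainly on fatty acid synthesis, while Insig1 holds both precursors in the endoplasmic reticulum. In the lung, type 2 alveolar cells are the main makers of surfactant, a film rich in phosphatidylcholine with saturated acyl chains, and draw on fatty acid synthesis and on lysophosphatidylcholine acylation to make it. Lipofibroblasts store neutral lipid nearby, and macrophages clear spent surfactant.

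The cells came from wild-type C57BL/6J mice (WT) and from mice of strain B6.129S4-Ccr2tm1Ifc/J (Ccr2KO), which lack the chemokine receptor CCR2 in every cell, so that monocyte entry into tissue is impaired. Mice were 7 to 9 weeks old at the start, and each genotype was sampled untreated (day 0), 28 days and 40 days after aspiration of silica. Perfused lungs were digested, a Percoll gradient removed red cells and silica particles, and CD45-negative cells were taken by magnetic sorting. Each of the 6 groups was a single RNA pool of 3 biological replicates on 1 one-colour array, so the spread between mice was not measured. Levels are given as the log2 of the processed spot intensity minus the log2 of the 75th percentile of that array, so a level of 0 is the brightness that 75% of probes stay below, and levels of different genes were not compared.

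The 75th percentile of intensity ranged from 969 to 1179 on the untreated and day 28 arrays and was 878 (WT) and 793 (Ccr2KO) at day 40. Ccr2 itself read 0.09, 1.38 and -1.70 in WT at days 0, 28 and 40, and -5.07, -1.51 and -3.64 in Ccr2KO. It was lower in Ccr2KO on each day, but the Ccr2KO day 28 array lay above the WT day 40 array. Whether the probe lies within the targeted part of the gene is not known here. Ptprc, which encodes CD45 and should be low in this sort, was well above background on all 6 arrays, at 1.54, 2.62 and 0.29 on the WT arrays and 0.45, 2.14 and -0.61 on the Ccr2KO arrays, so the cells were not free of leukocyte RNA. The mean over 12 pan-leukocyte genes was 3.93 (WT) and 3.52 (Ccr2KO) at day 28, against 1.21 to 2.68 on the other arrays.

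The effect of silica was estimated over both genotypes as the mean of days 28 and 40 minus untreated, with limma and terms for day and genotype. This left 2 residual degrees of freedom, so its p-values measure what day and genotype leave unexplained among 6 pools and not the spread between animals. By this test 12 of the 40 genes changed at an adjusted p below 0.05, 3 upward and 9 downward. Of all 16440 genes, 19.8% changed, 10.5% upward and 9.28% downward. In fatty acid and phospholipid metabolism 2 of 17 genes rose, 7 fell and 8 did not pass, with a median difference of -0.53. Among the 17 enzymes from mevalonate to cholesterol, 2 fell, none rose and 15 did not pass, with a median of -0.10, beside -0.01 over all genes tested. The difference between these groups was not tested.

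**Figure D1:**
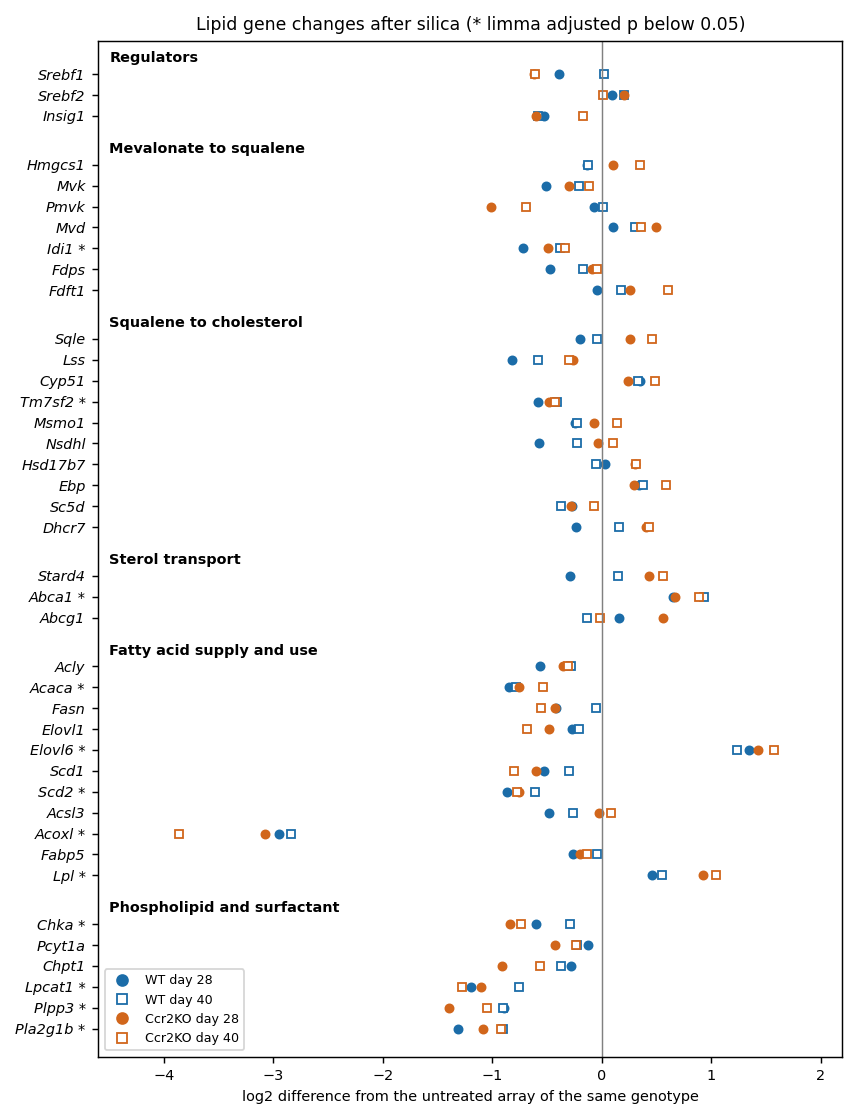
Difference of each of the 40 genes from the untreated array of the same genotype (x axis, log2), by role; blue marks WT, orange Ccr2KO, filled circles day 28 and open squares day 40, and an asterisk marks an adjusted p below 0.05 in the limma test of silica. Each point is a difference of 2 single arrays, so there are no error bars, and both days of a genotype share 1 untreated array; all 6 phospholipid genes sit left of 0 at every point, and Acoxl sits farthest left, down to -3.86.

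None of the 3 regulators passed the test of silica. Srebf1 read -0.85, -1.24 and -0.82 in WT at days 0, 28 and 40, and -0.62, -1.24 and -1.23 in Ccr2KO, a difference of -0.40 ± 0.16 (SE; limma adjusted p = 0.161). The WT day 40 array lay above the WT untreated array, so silica and untreated arrays overlapped. Srebf2 read 0.25, 0.34 and 0.46 on the WT arrays and 0.25, 0.46 and 0.26 on the Ccr2KO arrays. Its silica arrays all lay above the untreated ones, though barely so for Ccr2KO day 40, and the mean difference was 0.13 ± 0.11 (SE). A dimmer Srebf2 probe read -1.14, -0.57 and -1.43 on the WT arrays and -1.73, -0.67 and -1.77 on the Ccr2KO arrays. There day 40 lay below untreated in both genotypes, so the probes of Srebf2 disagree. Insig1, itself a target of SREBP and thus a common readout of its activity, read -0.95, -1.48 and -1.53 on the WT arrays and -0.91, -1.51 and -1.07 on the Ccr2KO arrays. All 4 silica arrays lay below both untreated arrays, and the difference of -0.47 ± 0.14 (SE) had a limma adjusted p of 0.0934.

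Of the 7 enzymes that carry acetyl units through mevalonate to squalene, Idi1 fell and the other 6 did not pass. Idi1, the isopentenyl diphosphate isomerase, read 2.96, 2.24 and 2.58 on the WT arrays and 2.72, 2.23 and 2.39 on the Ccr2KO arrays. All silica arrays were below both untreated arrays, with the day 28 pair lowest, and the difference was -0.48 ± 0.10 (SE), a 1.40-fold decrease (limma adjusted p = 0.0462). The other 6 ranged from -0.44 for Pmvk, the phosphomevalonate kinase, to 0.31 for Mvd, which makes isopentenyl diphosphate. Hmgcs1, the cytosolic HMG-CoA synthase and a classical SREBP-2 target, stood at 0.05 ± 0.13 (SE).

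Among the 10 enzymes from squalene to cholesterol, Tm7sf2 fell and the other 9 did not pass, with 5 differences above 0 and 5 below and a median of 0.01. Tm7sf2, a sterol reductase that acts on the double bond left by lanosterol demethylation, read 1.47, 0.88 and 1.06 on the WT arrays and 1.39, 0.91 and 0.96 on the Ccr2KO arrays. The silica arrays lay below both untreated arrays, and the difference was -0.47 ± 0.09 (SE; limma adjusted p = 0.0393). Neighbouring enzymes differed in sign without passing. Lss, the lanosterol synthase, stood at -0.49 ± 0.15 (SE; limma adjusted p = 0.0931), whereas Ebp, the sterol isomerase, stood at 0.40 ± 0.11 (SE; limma adjusted p = 0.0722) and Cyp51, the lanosterol demethylase, at 0.35 ± 0.11 (SE; limma adjusted p = 0.0912). In each of these 3 genes the silica arrays did not overlap the untreated ones, which held for 45% of all genes tested (21.1% with silica above, 24% below) and for 26 of the 40 members (7 above, 19 below).

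Promoters are shown because these enzymes are textbook targets of SREBP-2, which binds the sterol regulatory element beside NF-Y and Sp1. RefSeq windows of 300 bases (250 before and 50 after the annotated start, mouse GRCm38.p6) were at hand for 31 of the 40 genes. They were searched on both strands for the sterol regulatory element TCACNCCAC, the NF-Y box CCAAT, the Sp1 box GGGCGG and the E-box CACGTG; hits may overlap, and a match describes letters and not a site in use. Some genes have more than 1 window, and a gene was counted if at least 1 of its windows held the motif. So counted, the NF-Y box was found for all 14 mevalonate-to-cholesterol enzymes with a window, all 3 regulators, 5 of 7 fatty acid genes and 2 of 6 phospholipid genes, beside 41.1% of all 27025 genes with a window. The sterol regulatory element was found for Hmgcs1 and Pcyt1a alone among the 31 genes, beside 1.44% of all genes, the Sp1 box for 25 (38.2% of all genes) and the E-box for 5 (8.09%). The 250 bases before the start are shown for Hmgcs1, which holds the sterol regulatory element and did not pass, and for Idi1 and Tm7sf2, which fell, with every match in capitals (ATTGG is CCAAT, and CCGCCC is GGGCGG, read on the other strand).
Hmgcs1: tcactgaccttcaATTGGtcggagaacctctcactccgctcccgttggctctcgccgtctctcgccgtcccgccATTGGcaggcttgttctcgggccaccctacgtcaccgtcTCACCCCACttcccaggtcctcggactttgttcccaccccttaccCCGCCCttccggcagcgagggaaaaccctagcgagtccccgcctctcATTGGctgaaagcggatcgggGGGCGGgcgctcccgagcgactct
Idi1: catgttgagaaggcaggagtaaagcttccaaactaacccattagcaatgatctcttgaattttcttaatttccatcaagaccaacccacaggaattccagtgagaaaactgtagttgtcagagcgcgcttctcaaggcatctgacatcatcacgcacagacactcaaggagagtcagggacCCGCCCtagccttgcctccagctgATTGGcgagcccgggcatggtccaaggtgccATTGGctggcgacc
Tm7sf2: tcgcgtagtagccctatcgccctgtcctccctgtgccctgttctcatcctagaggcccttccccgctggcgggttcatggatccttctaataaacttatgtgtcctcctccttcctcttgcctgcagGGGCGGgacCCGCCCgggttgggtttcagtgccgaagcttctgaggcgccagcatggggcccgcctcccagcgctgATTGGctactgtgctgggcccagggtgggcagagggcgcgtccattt
They lie at chr13:119690101-119690350 (plus strand), chr13:8885356-8885605 (plus strand) and chr19:6067851-6068100 (minus strand), each printed 5′ to 3′ in the direction of the gene. In Hmgcs1 the element TCACCCCAC began 137 bases before the start. Idi1 held NF-Y boxes 45 and 14 bases before the start, and Tm7sf2 held 1 at 47 bases, with no match to the sterol regulatory element in either window.

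Of the 3 genes of sterol transport, Abca1 rose. Abca1, which exports cholesterol to apolipoprotein A-I and is induced by the sterol-sensing liver X receptors, read 2.01, 2.67 and 2.95 on the WT arrays and 2.23, 2.91 and 3.12 on the Ccr2KO arrays. Every silica array lay above both untreated arrays, day 40 above day 28 in each genotype, and the difference was 0.79 ± 0.09 (SE), a 1.73-fold increase (limma adjusted p = 0.0144). Abcg1, its partner in efflux, stood at 0.14 ± 0.13 (SE) and Stard4, a cytosolic sterol carrier, at 0.21 ± 0.18 (SE), both with overlapping arrays.

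Fatty acid genes included the largest changes of the set in both directions. Acoxl, an acyl-CoA oxidase-like gene, read 3.70, 0.76 and 0.86 on the WT arrays and 3.22, 0.15 and -0.64 on the Ccr2KO arrays. The lowest untreated array stood 2.36 above the highest silica array. The difference was -3.18 ± 0.25 (SE), a 9.07-fold decrease (limma adjusted p = 0.00886). A dimmer probe of the same transcript read 2.60 and 3.05 untreated and between -1.07 and 0.41 after silica. Elovl6, the elongase that extends palmitate to stearate, moved the other way. It read -0.56, 0.78 and 0.68 on the WT arrays and -0.28, 1.15 and 1.30 on the Ccr2KO arrays, with all silica arrays above both untreated arrays. Its difference was 1.40 ± 0.12 (SE), a 2.63-fold increase (limma adjusted p = 0.0091).

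The promoters of these oppositely moving genes are shown as before. That of Acoxl holds NF-Y boxes 137 and 82 bases before the start, and that of Elovl6, a gene otherwise listed among SREBP-1 targets, matched none of the 4 motifs.
Acoxl: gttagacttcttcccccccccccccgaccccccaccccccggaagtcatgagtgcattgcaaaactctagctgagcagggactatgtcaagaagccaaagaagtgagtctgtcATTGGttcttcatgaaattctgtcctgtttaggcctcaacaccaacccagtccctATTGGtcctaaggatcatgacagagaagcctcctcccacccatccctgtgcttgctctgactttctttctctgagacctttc
Elovl6: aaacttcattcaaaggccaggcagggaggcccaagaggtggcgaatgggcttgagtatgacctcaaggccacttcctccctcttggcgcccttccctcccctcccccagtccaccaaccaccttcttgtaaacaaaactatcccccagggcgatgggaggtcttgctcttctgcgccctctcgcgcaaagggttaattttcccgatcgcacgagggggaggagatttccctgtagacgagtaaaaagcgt
They lie at chr2:127854378-127854627 and chr3:129532136-129532385, both on the plus strand.

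Upstream of Elovl6, the enzymes that make palmitate did not rise. Acaca, the acetyl-CoA carboxylase that commits carbon to fatty acid synthesis, read 3.84, 2.99 and 3.06 on the WT arrays and 3.72, 2.97 and 3.18 on the Ccr2KO arrays. It fell by 0.73 ± 0.10 (SE) on the log2 scale (limma adjusted p = 0.0204), with no overlap between silica and untreated arrays, and its other 2 probes gave -0.44 and -0.56. Acly, which supplies cytosolic acetyl-CoA, stood at -0.38 ± 0.11 (SE) and Fasn, the fatty acid synthase, at -0.36 ± 0.15 (SE). Neither passed, although their silica arrays lay below both untreated arrays; a dimmer Acly probe gave a difference of 0.00, so the probes of Acly disagree.

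The stearoyl-CoA desaturases turn saturated into monounsaturated chains. Scd2 read 5.77, 4.91 and 5.17 on the WT arrays and 5.87, 5.11 and 5.09 on the Ccr2KO arrays, and fell by 0.75 ± 0.11 (SE) on the log2 scale (limma adjusted p = 0.0207). Scd1 stood at -0.56 ± 0.15 (SE; limma adjusted p = 0.0694) with arrays equally free of overlap. Lpl, the lipoprotein lipase that releases fatty acids from circulating triglyceride, was the other riser: it read 3.04, 3.50 and 3.59 on the WT arrays and 2.89, 3.81 and 3.94 on the Ccr2KO arrays. All silica arrays exceeded both untreated arrays, and the difference was 0.74 ± 0.15 (SE; limma adjusted p = 0.0393). Elovl1, Acsl3 and Fabp5, which elongate, activate and carry fatty acids, ranged from -0.41 to -0.16 and did not pass.

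All 6 phospholipid genes lay lower on every silica array than on either untreated array, and 4 fell. Lpcat1, which reacylates lysophosphatidylcholine into the saturated phosphatidylcholine of surfactant, read 1.60, 0.41 and 0.85 on the WT arrays and 1.50, 0.40 and 0.22 on the Ccr2KO arrays. It fell by 1.08 ± 0.17 (SE) on the log2 scale (limma adjusted p = 0.0236), a 2.12-fold decrease with no overlap between arrays. Plpp3, a phosphatase of lysophosphatidic and phosphatidic acid, read 5.24, 4.35 and 4.34 on the WT arrays and 5.46, 4.06 and 4.41 on the Ccr2KO arrays. Its difference was -1.06 ± 0.14 (SE; limma adjusted p = 0.0179), with the Ccr2KO day 28 array lowest. Pla2g1b, a secreted phospholipase, read 0.64, -0.67 and -0.26 on the WT arrays and 0.30, -0.78 and -0.62 on the Ccr2KO arrays. Its silica arrays stayed at least 0.56 below the lower untreated array, and the difference was -1.05 ± 0.11 (SE; limma adjusted p = 0.0118).

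Chka, the choline kinase that opens the route to phosphatidylcholine, read 1.17, 0.57 and 0.88 on the WT arrays and 1.26, 0.42 and 0.52 on the Ccr2KO arrays. Its difference was -0.61 ± 0.13 (SE; limma adjusted p = 0.0451), and its other 2 probes gave -0.74 and -0.83. The next enzymes of that route did not pass: Pcyt1a, which makes CDP-choline and sets the pace of the route, stood at -0.25 ± 0.12 (SE) and Chpt1, the cholinephosphotransferase, at -0.53 ± 0.16 (SE; limma adjusted p = 0.0952).

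**Figure D2:**
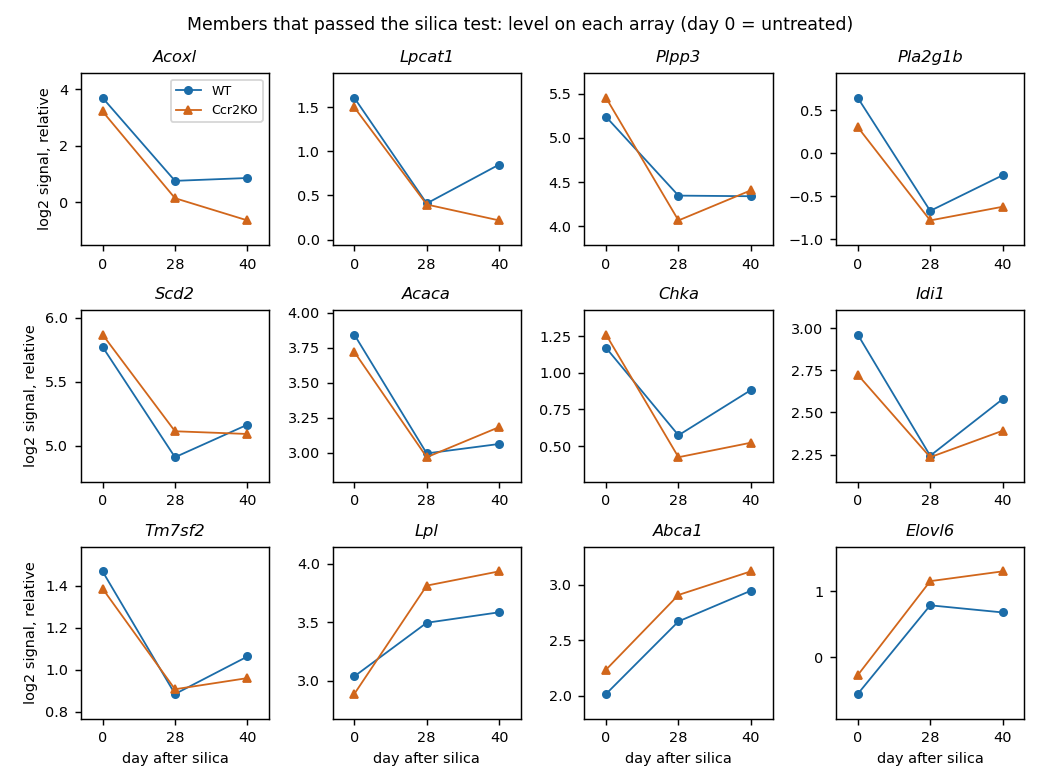
Level of the 12 genes that passed the test of silica on each of the 6 arrays (y axis, log2 intensity relative to the array's 75th percentile, with its own range in each panel; x axis, day, drawn at equal steps), WT as blue circles and Ccr2KO as orange triangles, 1 array per point. In each panel the untreated points lie on 1 side of all 4 silica points, above them in the 9 genes that fell and below them in Lpl, Abca1 and Elovl6.

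Some limits hold for all of these calls. Both untreated arrays and the Ccr2KO day 28 array lay in row 1 of the slide and the other 3 silica arrays in row 2; with row as a further term, 1 residual degree of freedom was left and 0 of 16440 genes passed with limma (2472 genes and 8 members at an unadjusted p below 0.05). The 12 genes kept their signs (Acoxl -2.90, Elovl6 1.33, Plpp3 -1.38). Within row 1 the comparison is Ccr2KO day 28 against Ccr2KO untreated. There Acoxl differed by -3.08, Elovl6 by 1.43, Plpp3 by -1.39, Lpcat1 by -1.10, Abca1 by 0.67 and Idi1 by -0.49. The silica and untreated arrays of these genes did not overlap, so the signs of these differences were fixed beforehand. Row 2 held no untreated array. Without the WT day 28 array no gene passed with limma (4446 genes and 15 members at an unadjusted p below 0.05), nor without the Ccr2KO day 28 array (4728 and 16). Leaving out any other single array likewise left 1 array on its day. Fewer of the 12 genes, and fewer of all genes, then passed than with all 6 arrays. Over the reported test and all alternatives, Acoxl ran from -3.47 to -2.89, Elovl6 from 1.21 to 1.50 and Idi1 from -0.66 to -0.33.

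Further genes of these pathways were counted from wider lists. Of 17 other sterol genes 1 fell, none rose and 16 did not pass, with a median difference of -0.16 and a range of -0.53 to 1.63. The largest of these differences, 1.63, did not pass. All silica arrays lay above both untreated arrays in 1 of the 17 genes and below both in 7. The one that fell was Soat1, which esterifies cholesterol (-0.53 ± 0.11 SE, limma adjusted p = 0.0421). Of 22 measured other fatty acid genes 4 fell and 18 did not pass, with a median of -0.25. Those that fell were Mid1ip1, an activator of acetyl-CoA carboxylase (-1.20 ± 0.12 SE), Cd36, a fatty acid translocase (-0.79 ± 0.12 SE), Fabp3, a fatty acid binding protein (-0.76 ± 0.14 SE), and Elovl5, an elongase of polyunsaturated chains (-0.46 ± 0.09 SE).

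Of 26 measured other phospholipid genes 4 fell, 2 rose and 20 did not pass, with a median of -0.14. Lpin2, a phosphatidic acid phosphatase, fell by 1.18 ± 0.11 (SE), Cds1, which makes CDP-diacylglycerol, by 1.08 ± 0.10 (SE), and Abca3, the pump that loads surfactant lipid into lamellar bodies, by 0.80 ± 0.10 (SE), all on the log2 scale. Pcyt1b, an isoform of Pcyt1a, was not well above background on either untreated array and was at least 2.15-fold higher on the silica arrays. That bound sets the mean of the silica arrays against, per untreated array, the higher of the lowest signal well above background and the probe's own. Pcyt1b met the filter on dim probes only through silica arrays. The filter thus favoured a rise, and its place among the 2 that rose is not support for one.

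Markers of several cell types moved with these genes. Of 14 type 2 alveolar markers, Abca3 included, 9 fell and 5 did not pass, with a median of -0.77; their mean level was 5.86 to 5.99 on the untreated arrays and 5.20 to 5.57 on the silica arrays. The surfactant protein genes divided: Sftpb fell by 0.76 ± 0.10 (SE) on the log2 scale, while Sftpc stood at 0.11 ± 0.10 (SE) and Sftpd at 0.20 ± 0.11 (SE). Of 7 measured type 1 alveolar markers 6 fell (median -1.37), and of 7 alveolar fibroblast markers 4 fell (median -1.46). In a bulk sample, fewer cells of a type and less RNA per cell cannot be told apart, and the part of these markers in the fall of the phospholipid and fatty acid genes was not tested.

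Markers of macrophages and of fat also moved, beside the genes that rose. Of 7 measured markers of macrophages other than alveolar ones 6 rose, with a mean level of -1.44 to -1.14 untreated and -0.92 to 0.83 after silica. By day, 6 of the 7 rose at day 28, with a median of 2.26, and 1 at day 40, with a median of 0.75. Of 9 measured alveolar macrophage markers 0 passed with limma (1 at an unadjusted p below 0.05). The alveolar macrophage values went opposite ways in the 2 genotypes: in Ccr2KO all 9 differences from untreated were above 0 on both days (medians 1.91 at day 28 and 0.99 at day 40), while in WT 6 and 8 of the 9 were below 0 (medians -0.78 and -2.90). Both days of a genotype share 1 untreated array, on which the mean level of this list was 1.44 in WT and -0.91 in Ccr2KO. Of 7 measured neutrophil markers 5 rose with silica, with a median of 0.99, and 6 rose at day 28, with a median of 2.50; of the 12 pan-leukocyte markers 3 rose with silica and 11 at day 28, while 3 fell at day 40. Of 8 measured adipocyte markers 3 rose, 1 fell and 4 did not pass, with differences from -1.45 to 2.99. Their mean level was -2.71 to -1.87 untreated and -1.95 to -0.76 after silica, so the arrays overlapped. In WT 3 of the 8 were below untreated on each silica day, and in Ccr2KO 1 was. Fabp4, an adipocyte and macrophage fatty acid carrier, rose by 2.03 ± 0.23 (SE). Adipoq, which encodes adiponectin, was not well above background on either untreated array. It was at least 4.43-fold higher after silica, measured above background on 3 of the 4 silica arrays. Adipoq thus met the filter on dim probes only through silica arrays, which favoured a rise. The part of these cells in the rise of Abca1, Lpl and Elovl6 was not tested. Of 8 proliferation genes 7 rose, with a median of 2.26.

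**Figure D3:**
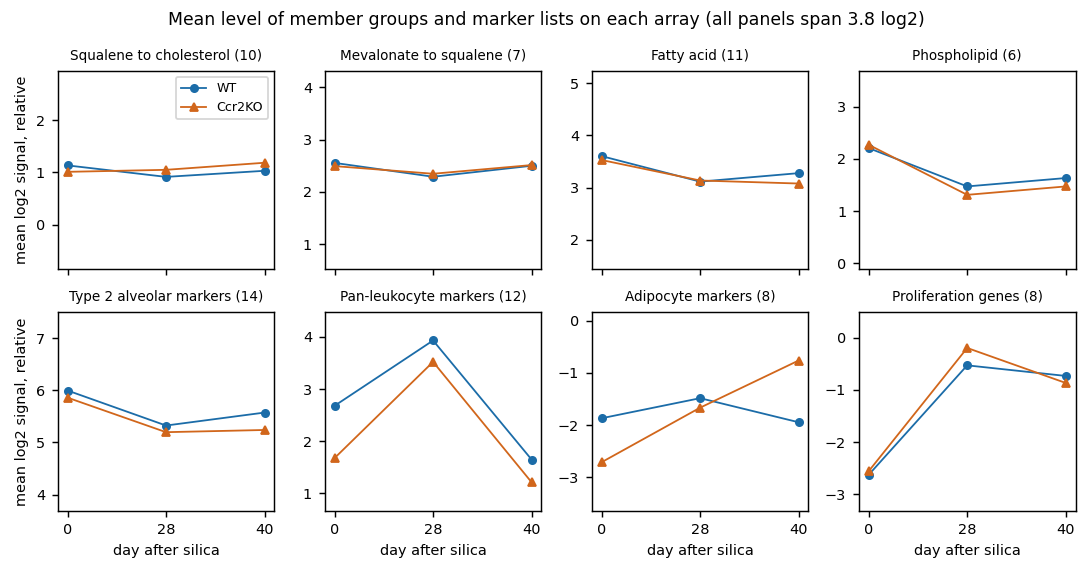
Mean level of member groups (top) and of marker lists (bottom) on each array (y axis, mean log2 intensity relative to the array's 75th percentile, every panel spanning 3.8 log2 units; x axis, day, at equal steps); WT as blue circles, Ccr2KO as orange triangles, 1 array per point and no error bars. The phospholipid mean went from 2.21 and 2.27 untreated to between 1.31 and 1.63 after silica, while the squalene-to-cholesterol mean stayed between 0.92 and 1.19 on all 6 arrays and the pan-leukocyte mean peaked at day 28.

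By day, 11 members passed at day 28 (2 rose and 9 fell, beside 9.17% and 8% of all genes, 17.2% in all) and 8 at day 40 (2 rose and 6 fell, beside 8.5% and 6.71%, 15.2% in all), both against the same untreated arrays. The 8 of day 40 were all among the 11 of day 28: Abca1 and Elovl6 upward, and Acaca, Scd2, Acoxl, Lpcat1, Plpp3 and Pla2g1b downward. Idi1, Tm7sf2 and Chka passed at day 28 only, at -0.61, -0.53 and -0.72, with day 40 values of -0.36, -0.42 and -0.51. Day 40 against day 28, tested directly, called 0 members, beside 2.73% of all genes (0.201% higher and 2.52% lower). By limma 1 member had an unadjusted p below 0.05 there, beside 16.2% of all genes, and 35 of the 40 differences were above 0 with a median of 0.14, beside a median of 0.10 over all genes. Within a genotype, 31 of the 40 were above 0 in WT and 30 in Ccr2KO, beside 59.6% and 67.8% of all genes.

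Between genotypes 0 of the 40 genes, and 0 of 16440, passed with limma; at an unadjusted p below 0.05 there were 3 members, beside 9.28% of all genes for this contrast. The 3 were Elovl6 (0.43 ± 0.11 SE higher in Ccr2KO), Acoxl (-0.87 ± 0.24 SE) and Fabp5 (-0.30 ± 0.09 SE), with limma adjusted p of 0.471, 0.478 and 0.496. Fabp5, an epidermal-type fatty acid carrier also made by macrophages, read 6.03, 5.77 and 5.99 on the WT arrays and 5.75, 5.54 and 5.61 on the Ccr2KO arrays, and was the only member whose genotypes did not overlap. Over all genes, 1.31% had every Ccr2KO array below every WT array and 2.77% every one above.

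The silica response of Ccr2KO minus that of WT was tested in a fit of genotype by silica that took both silica days of a genotype together. Its 2 residual degrees of freedom came from the day 40 minus day 28 differences within each genotype. Its standard errors thus rest on the change between days and not on the spread between animals. It called 0 of 40 members and 0 of 16440 genes with limma; at an unadjusted p below 0.05 there were 0 members and 3.76% of all genes. The estimates of all 10 squalene-to-cholesterol enzymes were above 0, from 0.02 for Cyp51 to 0.47 for Sqle, with standard errors of 0.22 to 0.32, and all share the same untreated array of each genotype. Over all genes the median of this contrast was -0.03, and -0.25 with the array median as the scale. The sign of an estimate near 0 thus depends on the scaling. In this contrast the alveolar macrophage markers were above 0 in 9 of 9 (median 3.17, 4 at an unadjusted limma p below 0.05), the pan-leukocyte markers in 12 of 12 (median 0.44), and the alveolar fibroblast markers below 0 in 7 of 7 (median -1.06, 3 at an unadjusted p below 0.05). None of these markers passed, and their part in the sterol estimates was not tested. Read as Ccr2KO minus WT by day, 2 of the 10 were higher in Ccr2KO untreated, 7 at day 28 and 9 at day 40, with medians of -0.18, 0.11 and 0.15, beside 58%, 48% and 55.7% of all genes. These counts depend on the scaling: with the array median in its place they were 5, 7 and 5, and without scaling 0, 3 and 5. Against the all-gene median of the day, 1, 7 and 9 were higher, and 1 to 2, 7, and 7 to 9 in every scaling and filter tried. At day 28 the Ccr2KO array lay in slide row 1 and the WT array in row 2, so genotype and row cannot be told apart there. Untreated and at day 40 the genotypes shared a row.

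**Figure D4:**
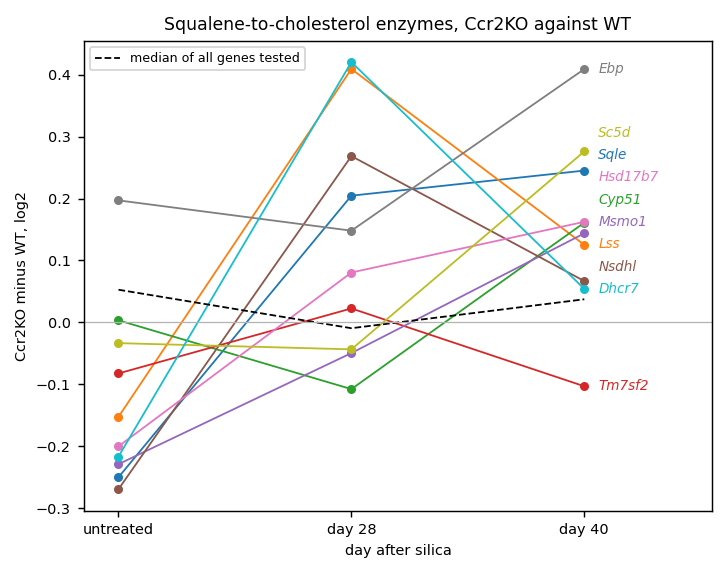
Ccr2KO minus WT (y axis, log2) for the 10 squalene-to-cholesterol enzymes, untreated and at days 28 and 40 (x axis, at equal steps), with the median of all genes tested as a dashed line; each point is a difference of 2 single arrays, with no error bars. Untreated, 8 of 10 enzymes lie below 0, and at day 40 only Tm7sf2 does. With the array median as the scale the untreated split is 5 and 5, and so is that of day 40. At day 28 the arrays of the genotypes lay in different slide rows. None of the 10 passed the test of the difference.

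Sqle, the squalene epoxidase, read 2.57, 2.38 and 2.54 on the WT arrays and 2.32, 2.58 and 2.78 on the Ccr2KO arrays. After silica both WT arrays were below their untreated array and both Ccr2KO arrays above theirs, and the difference of responses was 0.47 ± 0.26 (SE). Hmgcs1 had the same pattern; 2 of 40 members had it, beside 3.79% of all genes. Of the 7 enzymes from mevalonate to squalene, 6 also had estimates above 0, and the median was 0.22. Pmvk alone had the opposite sign: it read 3.67, 3.59 and 3.68 on the WT arrays and 4.05, 3.04 and 3.36 on the Ccr2KO arrays. Its WT arrays hardly moved while its Ccr2KO silica arrays lay below every other array, and the estimate of -0.82 ± 0.30 (SE) had a limma adjusted p of 1.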

How the data were processed

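Cy3-labelled RNA of 6 pools was read on one-colour Agilent arrays (design 028005). The deposited scanner files give processed spot intensity (Feature Extraction 11.0.1.1, per the file headers), already background-corrected. The authors also deposited a value table in log2; for the probes of all 40 members it equals the log2 of that intensity within 4.97e-09, so it is not scaled between arrays. The submitters' processing notes name R 2.15.1; no genome build was needed for the values.

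Control spots were left out (59305 of 62976 remained), repeats of a probe averaged, and log2 intensity taken relative to the array's 75th percentile. Of 55681 probes 27509 had 1 gene symbol through RefSeq; 35 with a missing value were left out, probes well above background on at least 2 arrays kept, and the brightest probe used per gene. limma 3.58.1 in R 4.3.3 fitted all 16440 genes (lmFit, eBayes), with Benjamini-Hochberg adjustment over all of them and a threshold of 0.05. Only the test of silica was tried on simulated data, with independent errors drawn from its own model. The other contrasts and fits were not simulated. Values on every array are given for members that passed and for the regulators, and otherwise for members a result turned on. Other pathway genes are named where they passed, at most 4 a list by size; the named markers, Sqle, Pmvk and the promoters were chosen after their values were seen. The members and lists were chosen with earlier results of these data known. Alternatives covered background correction, scaling, the filter on dim probes, the probe rule, the variance model, slide row, 1 silica term and leaving out each array. The precision is limited by the number of arrays.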

Additional observations from a re-analysis of the deposited data

Results flagged for a closer look

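In 2 of the 40 genes (5.0%) every WT silica array lay below its untreated array and every Ccr2KO silica array above its own. Over all 16440 genes this pattern was met by 3.79%, so the share among members was close to that of all genes. No member passed the test of the difference of responses. For Hmgcs1 the WT differences at days 28 and 40 were -0.13 and -0.12 and the Ccr2KO ones 0.11 and 0.35, and the response in Ccr2KO exceeded that in WT by 0.35. For Sqle they were -0.20 and -0.04 against 0.26 and 0.46, and the response exceeded that in WT by 0.47. Both days of a genotype share 1 untreated array.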

How the results depend on the processing

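The 12 genes that passed the test of silica kept their sign under all 16 alternatives. They were picked for passing on these same arrays, and none had overlap between silica and untreated arrays. Leaving out an untreated array could therefore not change a sign. In the 8 alternatives that keep all 6 arrays, a scaling between arrays and at least 2 residual degrees of freedom, 8 of the 12 passed throughout; Chka, Idi1, Lpl and Tm7sf2 did not. Members called as reported were 3 higher and 9 lower for silica, 2 and 9 at day 28, 2 and 6 at day 40, and 0 in the other comparisons. With the deposited log2 table, not scaled, 18 were lower for silica, 21 at day 40 and 1 for day 40 against day 28. That table moved the median of all genes to -0.19 for silica and the calls over all genes from 1723 higher and 1526 lower to 1309 and 3628. With the array median as scale 1 was higher at day 28. Without a filter on dim probes 1 was higher and 3 lower at day 28, and 2 lower at day 40. With an intensity trend and robust prior 4 were higher at day 40. With slide row as a term, which leaves 1 residual degree of freedom, these counts were 0 for silica, day 28 and day 40. Leaving out 1 array in turn, also with 1 residual degree of freedom, gave 0 to 2 higher and 0 to 5 lower for silica, 0 to 2 and 0 to 6 at day 28, and 0 to 2 and 0 to 1 at day 40. Of all genes, 9% passed for silica without a filter, 33.1% with the deposited table and 12.4% with 1 silica term, against 19.8%. For day 28 no filter gave 6.82% against 17.2%, and for day 40 it gave 5.92% against 15.2%, where the deposited log2 values without scaling gave 41%. For day 40 against day 28 the share ran from 1.12% to 5.91% over the alternatives with 6 arrays and no slide row, against 2.73%. The cause was not tested. No member passed between genotypes or for the difference of responses in any alternative run. Normexp used the median spot signal, chosen after seeing the data; the mean signal first planned was not used here. No paired analysis was possible because each group was 1 array and the labels carry no replicate numbers.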
